A study of Mus musculus with 8 samples.

Results

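Autophagy delivers cytoplasm and organelles to the lysosome, and the ubiquitin ligases atrogin-1 and MuRF1 mark muscle proteins for the proteasome. The 38 genes described here cover both routes in mouse cardiomyocytes: the ATG8 proteins and the machinery that attaches them to membranes, receptors for mitochondria and endoplasmic reticulum (ER), lysosomal proteins, both ligases, and the transcription factors TFEB, FOXO1 and FOXO3. They were chosen by gene symbol out of 54752 genes in the count table, with earlier results of these data known. Of the 38 members 37 were tested, with 14665 genes tested in all.

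Each of the 8 libraries came from cardiomyocytes of mosaic Carm1fl/fl hearts, isolated by Langendorff perfusion. CARM1 is an arginine methyltransferase that modifies histones and other nuclear proteins. The Carm1 KO groups had received AAV9-Cre, a virus carrying the recombinase that cuts out floxed DNA, and the controls AAV9-GFP. There were 4 groups of 2 libraries: KO at 3w and control at 3w, with injections labelled postnatal day 3 and 4, and KO at 1w and control at 1w, with injections labelled postnatal day 1 and 2. Every group thus carried floxed alleles and a virus, no group combined Cre with intact Carm1 alleles, and the promoter driving Cre is not given in the sources used here. In a mosaic heart some cardiomyocytes stay uninfected, and no sorting is described. Within each group replicate 1 carries the earlier labelled day of injection and replicate 2 the later. Different days would mean separate animals, but the labels do not say outright that paired libraries came from separate animals. All p-values below therefore rest on the spread between libraries, and that spread may be technical. Wherever a pair of values is given for a group, replicate 1 comes before replicate 2.

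In heart muscle, autophagy starts when the ULK1 kinase complex and the lipid kinase complex built on Beclin 1 form a phagophore. The ATG conjugation enzymes then couple LC3 and GABARAP proteins to its membrane, receptors bind cargo to these proteins, and the closed autophagosome fuses with a lysosome. FOXO factors are known activators of atrogin-1, MuRF1 and several autophagy genes in muscle, and TFEB activates lysosomal genes.

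The libraries held 20818285 to 53671626 counts, of which 40.7 to 47.8% came from mitochondrially encoded genes. Levels are given as CPM, a gene's counts scaled to a common library size. Carm1 itself had 17.3 and 17.8 CPM in the 3w KO libraries against 39.9 and 39.3 CPM in the 3w controls, and 22.2 and 22.4 CPM in the 1w KO libraries against 40.5 and 39.1 CPM in the 1w controls. Its log2 fold change was -1.17 ± 0.060 at 3w and -0.83 ± 0.055 at 1w, where ± gives the SE here and below unless the SD is named. Counts of 4 Y-linked genes did not follow the groups' labels: the 3w KO libraries had 3 and 2 against 6765 and 4814 in the 3w controls, while the 1w KO libraries had 5025 and 4282 against 1 and 0 in the 1w controls. The X-linked gene Xist was listed at 0 in all 8 libraries, and the labels do not give the animals' sex. Within either age the split of Y-linked counts and the KO therefore cannot be told apart. The mean of the KO effects at both ages balances the split only if its effect is alike at both ages, which was not tested. Within either genotype the split and age likewise cannot be told apart. The mean of the age effects in both genotypes balances it only if its effect is alike in both, which was not tested either. Of 8 cardiomyocyte markers Actc1 and Pln were listed at 0 in all libraries, and the others summed to 55949 and 55112 in the 3w KO libraries against 68258 and 72325 in the 3w controls, and 33455 and 33173 in the 1w KO libraries against 34929.8 and 35872 in the 1w controls (summed CPM). All 6 measured ones fell in KO over both ages, with a median log2 fold change of -0.28. Markers of other cell types were also present, and their summed CPM was higher in KO for several: fibroblast markers gave 856 and 867 in the 3w KO libraries against 444 and 447 in the 3w controls, and 2443 and 2418 in the 1w KO libraries against 1338 and 1343 in the 1w controls (10 of 11 measured rose over both ages and 1 fell), and macrophage markers 163 and 168 in the 3w KO libraries against 113 and 110.4 in the 3w controls, and 208 and 203 in the 1w KO libraries against 63.4 and 64.1 in the 1w controls. Over both ages 11 of 12 endothelial markers (median log2 fold change 0.26), 9 of 10 smooth muscle and pericyte markers (0.73), 5 of 8 epicardial markers (0.48) and 6 of 8 atrial markers (0.68) rose too, and 4 of 5 measured erythroid markers fell (-0.79). The atrial markers gave 609.5 and 594 in the 3w KO libraries against 177 and 172 in the 3w controls, and 637 and 642 in the 1w KO libraries against 67.5 and 69.9 in the 1w controls. That list did not move one way: 7 of 8 rose at 1w (median 2.89), while at 3w 5 fell and 2 rose (median -1.24). Of its genes Nppa rose at both ages. Nor did the epicardial list move one way: 7 of 8 rose at 1w (median 1.71), while at 3w 5 fell and 1 rose (median -0.68). In bulk samples of this kind, fewer cells of a type and less RNA per cell cannot be told apart.

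The members were mostly lower in KO. Over both ages 26 of the 37 tested members fell and 1, the protease gene Ctsb, rose, at an edgeR adjusted p under 0.05, here called changed. Their median log2 fold change was -0.21, against 0.016 over all genes tested. Small falls depend on the TMM scaling, whose factors differed between KO and control as given above. Among all genes 52.8% were changed (25.3% lower and 27.5% higher). At 3w 23 members fell and 3 rose, with a median of -0.19 and a background of 49.2% changed (24.8% lower and 24.4% higher). At 1w 20 fell and 2 rose, with a median of -0.17 and a background of 43.0% (20.0% lower and 23.0% higher). At both ages separately 17 members were called lower, where 9.87% of all genes were, and 1 was called higher, where 10.8% were. Both KO libraries lay below both control libraries at each age for 21 members, which held for 17.5% of all genes, and above them for Becn1, Atg16l1 and Ctsb, which held for 19.8%. Apart from Retreg1, Fbxo32, Trim63 and Bnip3, the members lower over both ages had log2 fold changes between -0.47 and -0.11, and the cardiomyocyte markers' median of -0.28 lies inside that range. The part of that marker change, and of the rise in markers of other cell types, in the members' change was not tested. With age and KO as additive terms, 17 of the 26 were called: Optn, Ulk2, Atg14, Atg3, Atg12, Ctsl, Bnip3l, Fundc1 and Foxo1 were not. DESeq2 did not call Atg14, Atg3 and Atg12 over both ages, Atg9a, Lamp1 and Tfeb at 3w, or Gabarapl1, Gabarapl2, Bnip3 and Foxo1 at 1w. Leaving out single libraries changed the few rises: at 3w (Lamp1, Ctsd and Ctsb) 0 remained without KO at 3w replicate 1 and 1 (Ctsd) without KO at 3w replicate 2 or control at 3w replicate 2, and at 1w (Ctsb and Foxo1) 1 (Ctsb) remained without KO at 1w replicate 2 or control at 1w replicate 2. Without that control library Atg16l1 was called beside Ctsb as higher over both ages.

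**Figure D1:**
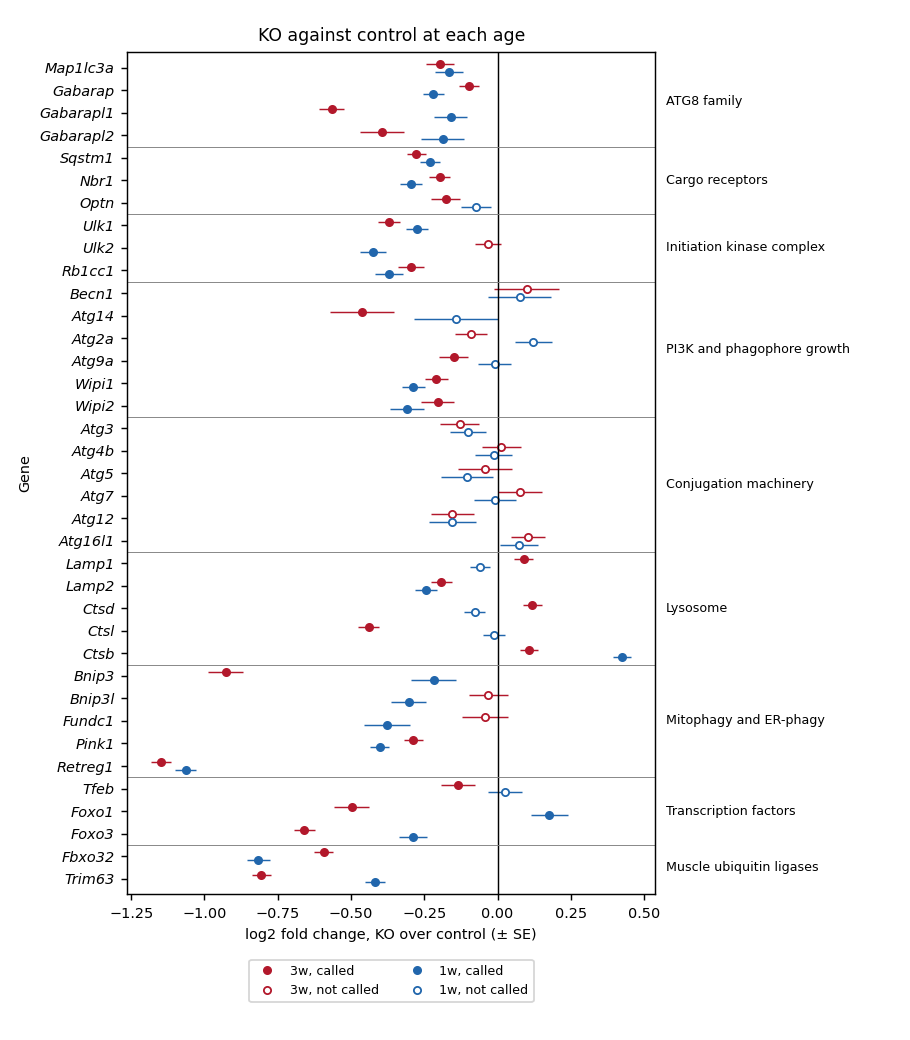
Log2 fold change of each tested member, KO over control, at 3w (red) and 1w (blue), with bars of 1 SE and filled points for changes at an edgeR adjusted p under 0.05. Most points lie left of 0, with Retreg1 farthest at -1.15 at 3w and -1.06 at 1w, and Ctsb lies right of 0 at both ages.

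The largest fall was that of Retreg1 (ENSMUSG00000022270, chr15:25843180-25973687 in mm10, GENCODE M21, plus strand), which encodes FAM134B, a receptor that hands stretches of ER to the autophagosome. It had 131 and 135 CPM in the 3w KO libraries against 293 and 297 CPM in the 3w controls, and 78.9 and 76.5 CPM in the 1w KO libraries against 164 and 161 CPM in the 1w controls. The KO libraries lay far below the controls at both ages, and its KO level at 3w stayed below its control level at 1w. The log2 fold change over both ages was -1.11 ± 0.025 (SE; edgeR adjusted p = 1.47e-44), a loss of 53.5%, and it was -1.15 ± 0.034 at 3w and -1.06 ± 0.036 at 1w.

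The mitochondrial receptors fell unequally across the ages. Bnip3 (ENSMUSG00000078566, chr7:138890836-138909519, minus strand), whose protein sits in the outer mitochondrial membrane and binds LC3, had 29.4 and 27.9 CPM in the 3w KO libraries against 56.5 and 52.04 CPM in the 3w controls. It also had 12.8 and 14.5 CPM in the 1w KO libraries against 17.2 and 14.9 CPM in the 1w controls. The groups were well apart at 3w and nearly met at 1w. Its log2 fold change was -0.93 ± 0.058 at 3w and -0.22 ± 0.076 at 1w, and -0.57 ± 0.048 (SE; edgeR adjusted p = 3.74e-15) over both ages. The 1w call ended without control at 1w replicate 1 (-0.13, edgeR adjusted p = 0.249) and without KO at 1w replicate 1 (-0.13, edgeR adjusted p = 0.318), while without control at 1w replicate 2 the value was -0.33. Several unlinked pseudogenes match Bnip3 at up to 98.9% identity, so its counts depend on how such reads were assigned.

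Bnip3l, the gene of the related receptor NIX, which clears mitochondria from maturing red cells, had 21.9 and 20.05 CPM in the 3w KO libraries against 21.01 and 21.98 CPM in the 3w controls, and 22.98 and 23.1 CPM in the 1w KO libraries against 29.003 and 28.04 CPM in the 1w controls. KO libraries were below controls at 1w and interleaved with them at 3w, and the fold change was -0.17 ± 0.044 over both ages, -0.032 at 3w and -0.30 at 1w. Of the 5 measured erythroid markers 2 rose and 0 fell at 3w (median 0.15) and 4 fell at 1w (median -1.63), and their summed CPM was 162 and 157 in the 3w KO libraries against 122 and 134 in the 3w controls, and 27.6 and 26.1 in the 1w KO libraries against 55.6 and 77.7 in the 1w controls. Their part in the change of Bnip3l was not tested. Its transcribed pseudogene Bnip3l-ps, 99.4% identical, held 699 counts over all libraries. Fundc1, which lies on the X chromosome and encodes a receptor for hypoxic mitochondria, had 14.5 and 14.3 CPM in the 3w KO libraries against 14.4 and 15.4 CPM in the 3w controls, and 11.95 and 11.1 CPM in the 1w KO libraries against 15.4 and 14.7 CPM in the 1w controls. It showed the same picture: separate groups at 1w, overlapping ones at 3w, and -0.21 ± 0.055 over both ages. Pink1 encodes the kinase that builds up on damaged mitochondria and recruits parkin. It had 399 and 384 CPM in the 3w KO libraries against 486 and 469.8 CPM in the 3w controls, and 141 and 144 CPM in the 1w KO libraries against 185 and 192 CPM in the 1w controls. All KO libraries were below their controls, with log2 fold changes of -0.29 ± 0.032 at 3w and -0.40 ± 0.033 at 1w.

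**Figure D2:**
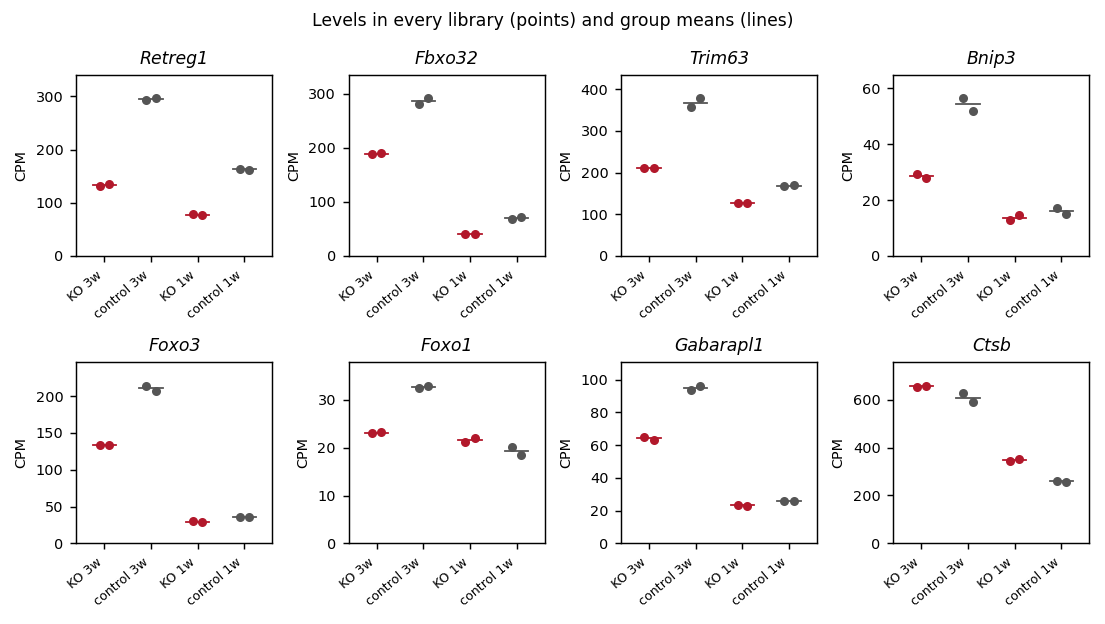
CPM of 8 members in each library (points, KO in red and control in grey) with group means (lines), on linear axes that start at 0. Retreg1, Fbxo32, Trim63 and Foxo3 lie lower in KO at both ages, Foxo1 lies lower in KO at 3w and higher at 1w, and Ctsb lies higher in KO at both.

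Both muscle ubiquitin ligases fell in KO at both ages. Fbxo32 (ENSMUSG00000022358, chr15:58175879-58214932, minus strand) encodes atrogin-1, the substrate-binding part of a ligase complex that rises in wasting muscle. It had 189 and 189.7 CPM in the 3w KO libraries against 280.1 and 292 CPM in the 3w controls, and 39.9 and 39.9 CPM in the 1w KO libraries against 68.5 and 71.7 CPM in the 1w controls. No KO library reached a control library of its age. The log2 fold change was -0.59 ± 0.034 at 3w and -0.82 ± 0.040 at 1w, and -0.70 ± 0.026 (SE; edgeR adjusted p = 1.28e-32) over both ages, a loss of 38.6%. Trim63 (ENSMUSG00000028834, chr4:134315120-134329629, plus strand) encodes MuRF1, which targets proteins of the sarcomere. It had 210.3 and 210.5 CPM in the 3w KO libraries against 358 and 379 CPM in the 3w controls, and 127 and 126 CPM in the 1w KO libraries against 168 and 169.5 CPM in the 1w controls. Here too the groups were apart at each age, with -0.81 ± 0.033 at 3w, -0.42 ± 0.034 at 1w and -0.61 ± 0.024 (SE; edgeR adjusted p = 1.11e-31) over both. The fall at 3w was smaller than that at 1w for Fbxo32 (difference 0.22 ± 0.053, edgeR adjusted p = 5.06e-04) and larger for Trim63 (-0.39 ± 0.048, edgeR adjusted p = 5.94e-10).

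The upstream sequences of 4 members are shown because both ligases, of which the table holds Trim63, are known FOXO targets, because lysosomal genes are known to carry CACGTG motifs that TFEB binds, and because these members moved differently. RefSeq's table (GRCm38.p6) gave promoters for 30 of the 38 members, and not for Map1lc3a, Rb1cc1, Becn1, Atg12, Atg16l1, Ctsb, Bnip3l or Fbxo32. GTAAACA, a core FOXO motif, or its complement TGTTTAC was found in 3.65% of all 32851 promoters (300 bases each) and in the promoter of 1 of these 30 members, Trim63. CACGTG, which reads the same on both strands and does not overlap GTAAACA, was in 7.15% of all promoters. It was in 9 of the 36 promoters of these 30 members, 1 each for Atg14, Atg3, Atg5, Atg7, Bnip3, Ctsd, Ctsl, Lamp1 and Retreg1. Retreg1 had other promoters without it. The Lamp1 promoter holds 4 copies, which 8 promoters (0.0244%) do, and the Ctsd promoter 2, which 195 promoters (0.594%) equal or exceed. A match describes letters, not binding. Starts here are those of RefSeq. The GENCODE M21 gene extends into the stretch shown for Ctsd, to 142388038, and for Bnip3, to 138909519. The 250 bases before each RefSeq start, read 5′ to 3′ along the gene's strand with the motifs in capitals, are as follows, for Trim63 at chr4:134314870-134315119 (plus strand), Bnip3 at chr7:138909507-138909756 (minus strand), Lamp1 at chr8:13158911-13159160 (plus strand) and Ctsd at chr7:142387828-142388077 (minus strand).
Trim63: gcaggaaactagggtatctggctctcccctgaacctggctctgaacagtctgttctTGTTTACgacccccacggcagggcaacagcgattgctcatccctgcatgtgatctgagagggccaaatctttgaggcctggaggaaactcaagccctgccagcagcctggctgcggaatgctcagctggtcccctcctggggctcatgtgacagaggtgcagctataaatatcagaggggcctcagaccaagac
Bnip3: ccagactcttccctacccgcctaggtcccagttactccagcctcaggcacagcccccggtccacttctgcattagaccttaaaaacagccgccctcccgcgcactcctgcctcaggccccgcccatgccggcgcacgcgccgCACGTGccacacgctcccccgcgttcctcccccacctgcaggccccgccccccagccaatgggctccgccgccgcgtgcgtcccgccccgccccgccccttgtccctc
Lamp1: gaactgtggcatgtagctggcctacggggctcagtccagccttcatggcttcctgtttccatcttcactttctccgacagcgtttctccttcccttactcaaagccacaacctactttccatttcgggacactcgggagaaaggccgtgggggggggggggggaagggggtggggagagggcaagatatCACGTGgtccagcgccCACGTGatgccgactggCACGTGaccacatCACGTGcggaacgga
Ctsd: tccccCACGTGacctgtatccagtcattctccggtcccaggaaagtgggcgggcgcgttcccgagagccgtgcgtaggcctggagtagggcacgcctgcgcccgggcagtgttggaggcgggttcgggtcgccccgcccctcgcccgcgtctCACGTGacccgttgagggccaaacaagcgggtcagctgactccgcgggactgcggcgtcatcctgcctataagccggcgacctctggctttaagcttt

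Of the transcription factors, Foxo3 fell at both ages, Foxo1 fell at 3w and rose at 1w, and Tfeb fell at 3w by a small margin. Foxo3, whose protein drives both ligases in wasting muscle, had 133 and 134 CPM in the 3w KO libraries against 215 and 207 CPM in the 3w controls, and 29.9 and 28.5 CPM in the 1w KO libraries against 36.2 and 35.3 CPM in the 1w controls. Its KO libraries were below controls at each age, with a log2 fold change of -0.66 ± 0.036 at 3w, -0.29 ± 0.048 at 1w and -0.47 ± 0.030 (SE; edgeR adjusted p = 1.92e-21) over both. Foxo1, a related factor under insulin control, had 23.2 and 23.2 CPM in the 3w KO libraries against 32.5 and 33.04 CPM in the 3w controls, and 21.3 and 22.05 CPM in the 1w KO libraries against 20.1 and 18.4 CPM in the 1w controls. The KO libraries were below the controls at 3w (-0.50 ± 0.060, edgeR adjusted p = 1.90e-10) and above them at 1w (0.18 ± 0.064, edgeR adjusted p = 0.0205). The 1w call ended without control at 1w replicate 2 (0.11, edgeR adjusted p = 0.332) or without KO at 1w replicate 2 (0.16, edgeR adjusted p = 0.132). Over both ages the opposite effects gave -0.16 ± 0.044. Tfeb, the master activator of lysosomal genes, was between 27.2 and 32.7 CPM in all libraries, and its change was -0.055 ± 0.041 over both ages (edgeR adjusted p = 0.262). Its 3w change of -0.13 was not called with the postnatal day of injection as a block (-0.13, edgeR adjusted p = 0.0558), and lost the call when 1 of 5 libraries was left out (control replicate 1 or either KO replicate at 3w, or either KO replicate at 1w, edgeR adjusted p up to 0.308).

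All 4 measured ATG8 genes fell at both ages, and Map1lc3b was listed at 0 in all 8 libraries. Gabarapl1, whose protein takes part in late steps of autophagosome formation and is a known FOXO target in muscle, had 65.1 and 63.3 CPM in the 3w KO libraries against 93.9 and 96.4 CPM in the 3w controls, and 23.3 and 23.03 CPM in the 1w KO libraries against 25.9 and 25.9 CPM in the 1w controls. The KO libraries were below the controls by a wide gap at 3w, -0.57 ± 0.042, and by a narrow one at 1w, -0.16 ± 0.055. Map1lc3a, the gene of an LC3 protein, had 244 and 222 CPM in the 3w KO libraries against 281 and 252 CPM in the 3w controls, and 157 and 157 CPM in the 1w KO libraries against 174 and 179 CPM in the 1w controls, and fell by 0.18 ± 0.034 on the log2 scale over both ages with no overlap at either age. Its 3w value ranged between -0.30 without control at 3w replicate 2 and -0.12 without control at 3w replicate 1.

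Gabarap, which also binds the ULK1 complex, had 159 and 160.4 CPM in the 3w KO libraries against 175 and 166 CPM in the 3w controls, and 131 and 136 CPM in the 1w KO libraries against 159.8 and 151 CPM in the 1w controls. The gap was narrow at 3w, -0.097 ± 0.036, and wider at 1w, -0.22 ± 0.036. Its 3w call ended without control replicate 1 (-0.066) or KO replicate 1 (-0.11) of that age, and without control replicate 2 the value was -0.16. Gabarapl2, the gene of GATE-16, had 16.9 and 15.8 CPM in the 3w KO libraries against 21.7 and 21.2 CPM in the 3w controls, and 16.9 and 16.2 CPM in the 1w KO libraries against 16.7 and 20.5 CPM in the 1w controls. Only the 3w libraries were apart, with -0.39 ± 0.075, and at 1w control replicate 1 lay among the KO libraries. The 1w value of -0.19 rested on control at 1w replicate 2, without which it was -0.0075, and was -0.31 without control at 1w replicate 1. Leaving out either KO library of 1w also ended that call, as it did for Gabarapl1 (-0.17 and -0.15), whose 1w call was further lost without control at 1w replicate 2 (-0.16). The 1w call of Map1lc3a ended without either control library of 1w or without KO at 1w replicate 2 (at most -0.14).

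The 3 cargo receptors fell over both ages. Sqstm1, the gene of p62, which binds ubiquitinated proteins and LC3 and is itself degraded by autophagy, had 274 and 272 CPM in the 3w KO libraries against 336 and 325 CPM in the 3w controls, and 129 and 130.3 CPM in the 1w KO libraries against 151 and 152 CPM in the 1w controls. Its groups did not overlap, and the change was -0.28 ± 0.032 at 3w and -0.23 ± 0.034 at 1w. Nbr1, a receptor found at the sarcomere's M band, had 123 and 128 CPM in the 3w KO libraries against 145 and 142 CPM in the 3w controls, and 88.5 and 90.5 CPM in the 1w KO libraries against 111 and 108 CPM in the 1w controls. KO libraries were again below controls at both ages, and the fold change over both was -0.25 ± 0.026 (SE; edgeR adjusted p = 2.33e-12). Optn, the gene of optineurin, a mitophagy receptor, had 50.8 and 53.5 CPM in the 3w KO libraries against 56.3 and 62.01 CPM in the 3w controls, and 37.1 and 37.5 CPM in the 1w KO libraries against 40.6 and 38.1 CPM in the 1w controls. The groups came close at 1w, where the change of -0.073 ± 0.052 was not called, and it was -0.18 ± 0.049 at 3w.

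The initiation kinases and their scaffold fell as well. Ulk1, the gene of the kinase that starts autophagy and is switched by AMPK and mTORC1, had 125 and 120.3 CPM in the 3w KO libraries against 161 and 155 CPM in the 3w controls, and 76.3 and 77.02 CPM in the 1w KO libraries against 91.8 and 93.6 CPM in the 1w controls. Its KO libraries stayed below the controls, with -0.37 ± 0.036 at 3w and -0.27 ± 0.038 at 1w. Rb1cc1, whose product FIP200 holds the kinase complex together, had 67.6 and 72.1 CPM in the 3w KO libraries against 83.7 and 88.2 CPM in the 3w controls, and 39.1 and 37.9 CPM in the 1w KO libraries against 51.9 and 48.2 CPM in the 1w controls. The change was similar, -0.33 ± 0.032 over both ages, with no overlap. Ulk2, the gene of a kinase related to ULK1, had 68.96 and 69.9 CPM in the 3w KO libraries against 73.6 and 67.98 CPM in the 3w controls, and 47.3 and 46.8 CPM in the 1w KO libraries against 64.5 and 62.1 CPM in the 1w controls. It was lower at 1w, -0.42 ± 0.045, and overlapped with control at 3w, -0.033 ± 0.043 (edgeR adjusted p = 0.559).

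Among the 6 genes of the phosphatidylinositol kinase complex and of phagophore growth, Atg14, Wipi1 and Wipi2 fell over both ages, and Becn1, Atg2a and Atg9a did not pass the test. Wipi1 and Wipi2 encode proteins that bind the lipid this kinase makes. Wipi1 had 125 and 133 CPM in the 3w KO libraries against 150.1 and 148 CPM in the 3w controls, and 101 and 92.2 CPM in the 1w KO libraries against 119 and 118 CPM in the 1w controls, and Wipi2 had 30.5 and 31.4 CPM in the 3w KO libraries against 35.3 and 36.1 CPM in the 3w controls, and 23.5 and 23.6 CPM in the 1w KO libraries against 29.04 and 29.3 CPM in the 1w controls. For each the KO libraries were below the controls at both ages, with -0.25 ± 0.027 for Wipi1 and -0.26 ± 0.040 for Wipi2 over both. Atg14, which steers the kinase complex to autophagy, was one of the lowest members with 5.79 and 6.73 CPM in the 3w KO libraries against 9.11 and 8.02 CPM in the 3w controls, and 3.35 and 3.04 CPM in the 1w KO libraries against 3.40 and 3.64 CPM in the 1w controls. The groups were near each other at 1w (-0.14 ± 0.14, not called) and apart at 3w (-0.46 ± 0.11).

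Becn1, the gene of Beclin 1, had 6.43 and 6.48 CPM in the 3w KO libraries against 6.01 and 6.04 CPM in the 3w controls, and 6.25 and 6.54 CPM in the 1w KO libraries against 6.09 and 6.04 CPM in the 1w controls. Its KO libraries were slightly above the controls, 0.088 ± 0.077 (edgeR adjusted p = 0.350), and 3104 of its 7065 exonic bases overlap Cntd1 on the opposite strand, so that with an unstated strand setting their reads cannot be told apart. Atg9a, the gene of a membrane protein that supplies lipid vesicles, had 60.98 and 59.1 CPM in the 3w KO libraries against 70.5 and 62.1 CPM in the 3w controls, and 29.7 and 31.3 CPM in the 1w KO libraries against 29.8 and 31.4 CPM in the 1w controls. Its libraries interleaved at 1w, and at 3w control replicate 1 stood high: the 3w value was -0.15, but -0.055 and not called without that library, -0.14 and not called without KO at 3w replicate 2, and -0.26 without control at 3w replicate 2. Over both ages Atg9a had -0.080 ± 0.038 and was called without control at 3w replicate 2 (-0.14), KO at 3w replicate 1 (-0.11) or control at 1w replicate 1 (-0.10). Atg2a, whose product transfers lipid to the growing membrane, had 35.7 and 36.3 CPM in the 3w KO libraries against 39.1 and 37.3 CPM in the 3w controls, and 22.4 and 22.9 CPM in the 1w KO libraries against 19.6 and 21.7 CPM in the 1w controls, a change of 0.016 ± 0.041 over both ages (edgeR adjusted p = 0.775). Its KO libraries were below the controls at 3w and above them at 1w, and neither difference was called.

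Few of the conjugation genes passed the test. By edgeR 0 of the 6 were called at 3w and 0 at 1w, by DESeq2 likewise 0 and 0, and at an unadjusted edgeR p under 0.05 1 at 3w and 0 at 1w, and their median log2 fold change over both ages was -0.037. Over both ages Atg3, the enzyme that passes ATG8 proteins to lipid, was called at -0.11 ± 0.045, with 20.5 and 19.9 CPM in the 3w KO libraries against 21.1 and 23.4 CPM in the 3w controls, and 22.7 and 23.2 CPM in the 1w KO libraries against 25.1 and 24.2 CPM in the 1w controls. Atg12, the ubiquitin-like protein joined to ATG5, was called at -0.15 ± 0.054, with 18.4 and 17.7 CPM in the 3w KO libraries against 19.1 and 21.4 CPM in the 3w controls, and 12.4 and 11.7 CPM in the 1w KO libraries against 12.97 and 13.7 CPM in the 1w controls. The KO libraries of these members lay below the controls at both ages, by margins near the spread within groups. Each call was lost on leaving out single libraries: Atg3 without control at 3w replicate 2 (-0.10), KO at 3w replicate 2 (-0.12), control at 1w replicate 1 (-0.11) or KO at 1w replicate 1 (-0.11), and Atg12 without control at 1w replicate 2 (-0.13) or KO at 1w replicate 2 (-0.14). Atg16l1, which places the conjugation complex on the membrane, had 30.3 and 32.3 CPM in the 3w KO libraries against 28.8 and 29.6 CPM in the 3w controls, and 19.99 and 20.4 CPM in the 1w KO libraries against 18.3 and 19.8 CPM in the 1w controls, higher in KO by 0.089 ± 0.044 without passing the test (edgeR adjusted p = 0.0798). Atg4b encodes a protease that trims ATG8 proteins, Atg5 the partner of ATG12 and Atg7 the activating enzyme, and over both ages they had changes of -0.00023 ± 0.046 for Atg4b, -0.073 ± 0.064 for Atg5 and 0.033 ± 0.052 for Atg7, none of them called (edgeR adjusted p of 0.998, 0.349 and 0.622). Single libraries also made calls here: Atg5 was called without KO at 3w replicate 2 (-0.19), Atg16l1 without control at 1w replicate 2 (0.12), and at 3w Atg3 and Atg12 without control at 3w replicate 1 (-0.22 and -0.25).

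The lysosomal members split. Ctsb, the gene of the cysteine protease cathepsin B, was the only member that rose over both ages. It had 652 and 660.3 CPM in the 3w KO libraries against 627 and 590.4 CPM in the 3w controls, and 344 and 351 CPM in the 1w KO libraries against 263 and 255 CPM in the 1w controls. Both KO libraries were above both controls at each age, with 0.11 ± 0.031 at 3w, 0.42 ± 0.031 at 1w and 0.27 ± 0.022 (SE; edgeR adjusted p = 2.32e-16) over both. The 3w call ended without control at 3w replicate 2 (0.040) and without KO at 3w replicate 1 (0.10) or replicate 2 (0.083). Cathepsin B is abundant in macrophages. Of 17 measured macrophage and myeloid markers 15 rose and 1 fell at 3w, and all 17 rose at 1w, where Ctsb also rose more (difference of the effects -0.32 ± 0.044, edgeR adjusted p = 2.03e-08). Itgam was listed at 0. The markers' part in the rise of Ctsb was not tested.

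Ctsl, the gene of cathepsin L, had 122 and 121 CPM in the 3w KO libraries against 160.1 and 168 CPM in the 3w controls, and 97.2 and 96.3 CPM in the 1w KO libraries against 97.2 and 98.04 CPM in the 1w controls. It was lower in KO at 3w, -0.44 ± 0.036, and not called at 1w, -0.014 ± 0.037, where a KO and a control library differed by less than the rounding of these values. Of its 6489 exonic bases 1742 overlap Gm47123 on the opposite strand. Lamp2, an X-linked gene for a lysosomal membrane protein whose loss causes Danon disease of the heart, had 131 and 138 CPM in the 3w KO libraries against 149.7 and 158 CPM in the 3w controls, and 103 and 105 CPM in the 1w KO libraries against 127 and 119.8 CPM in the 1w controls. Its KO libraries were below the controls at both ages, -0.22 ± 0.026 over both. Lamp1, an abundant membrane protein of the same family, had 259 and 264 CPM in the 3w KO libraries against 245 and 246 CPM in the 3w controls, and 121 and 122 CPM in the 1w KO libraries against 129 and 125 CPM in the 1w controls. Ctsd, the gene of the aspartic protease cathepsin D, had 247 and 239 CPM in the 3w KO libraries against 223 and 225 CPM in the 3w controls, and 99.5 and 102 CPM in the 1w KO libraries against 109 and 104 CPM in the 1w controls. For both genes the KO libraries were above the controls at 3w and below them at 1w, and over both ages they differed by 0.014 ± 0.024 for Lamp1 and 0.020 ± 0.025 for Ctsd, neither called. The 3w rises, 0.089 for Lamp1 and 0.12 for Ctsd, were lost without KO at 3w replicate 1 (0.087 and 0.082), and for Lamp1 also without either control of 3w, KO at 3w replicate 2 or KO at 1w replicate 1 (down to 0.059). At 1w Ctsd had -0.078 and Lamp1 -0.060, and Ctsd was called lower without either library of KO at 3w or control at 3w, or control at 1w replicate 2 (down to -0.11), and Lamp1 without either library of control at 3w (-0.078 in each case).

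Most members rose with age. In the 3w libraries, set against the 1w libraries over both genotypes, 30 of the 37 members rose and 3 fell, with a median log2 fold change of 0.58 against -0.027 over all genes. Of all genes 76.8% changed, 37.4% higher and 39.4% lower. These rises are relative to the TMM scaling, whose factors were 0.759 to 0.917 at 3w and 1.14 to 1.23 at 1w. They do not give a change in a gene's share of all counts. In KO 28 members rose and 1, Atg3, fell, against a background of 67.9% (33.2% higher and 34.6% lower), and in control 30 rose and 3, Atg3, Atg7 and Bnip3l, fell, against 70.8% (34.9% higher and 36.0% lower). Within a genotype age cannot be told apart from the split of Y-linked counts. The ages also differed in labelled day of injection, so age, that day and the time since injection cannot be told apart in any of these comparisons. The steepest rises were those of Foxo3 (2.38 ± 0.029), Fbxo32 (2.14 ± 0.026), Gabarapl1 (1.67 ± 0.034), Bnip3 (1.42 ± 0.047) and Pink1 (1.40 ± 0.023). Foxo3 averaged 134 ± 0.785 CPM in the 3w KO libraries against 29.2 ± 0.937 CPM in the 1w KO libraries, and 211 ± 5.02 CPM in the 3w controls against 35.7 ± 0.614 CPM in the 1w controls (SD, n = 2 each). Every 3w library exceeded every 1w library of its genotype by a wide margin for these genes. Markers of other cell types changed with age as well. Over both genotypes 9 of 11 fibroblast markers were lower at 3w (median log2 fold change -1.55). So were 11 of 12 endothelial markers (-1.33) and 9 of 10 smooth muscle and pericyte markers (-1.13). All 6 measured cardiomyocyte markers (0.82) and all 5 measured erythroid markers (1.75) were higher. Other lists differed between the genotypes. Of 8 atrial markers 7 fell and 1 rose in KO (-3.74), while 3 fell and 5 rose in control (0.93). Of 8 epicardial markers 7 fell and 0 rose in KO (-1.39), while 3 fell and 5 rose in control (1.12). Of 17 macrophage and myeloid markers 11 fell and 2 rose in KO (-0.76), while 4 fell and 8 rose in control (0.35). Their part in the members' change with age was not tested.

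All 5 lysosomal members rose with age, among them Ctsd (1.17), Ctsb (1.08) and Lamp1 (1.03). So did the 3 cargo receptors, led by Sqstm1 (1.10), and the 3 initiation genes, led by Rb1cc1 (0.82). Of the phagophore genes Atg14 (1.13), Atg9a (1.05), Atg2a (0.77), Wipi1 (0.38) and Wipi2 (0.34) rose, and Becn1 had 0.0038. Trim63 (0.93) and Retreg1 (0.82) rose too. Of the conjugation genes Atg16l1 (0.62) and Atg12 (0.58) rose, Atg3 (-0.17) and Atg7 (-0.12) fell, and Atg4b and Atg5 did not pass the test. Bnip3l was the remaining member that fell (-0.27 ± 0.044), while Bnip3 rose. The small changes of Atg7, Fundc1 (0.15) and Tfeb (0.11) lost their calls when single libraries were left out: Atg7 without any 1 of 6 libraries (all but control at 1w replicate 1 and KO at 1w replicate 1), Fundc1 without replicate 2 of either 1w group, and Tfeb without KO at 1w replicate 2. Gabarapl2 (0.088, not called) was called without control at 1w replicate 2 (0.18) or KO at 3w replicate 2 (0.13). Within a genotype, the fall of Atg3 in KO was lost without replicate 2 of either KO group, and in control Atg3 (-0.068 without control at 3w replicate 1) and Atg7 lost theirs in 4 and 7 of 8 such fits.

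**Figure D3:**
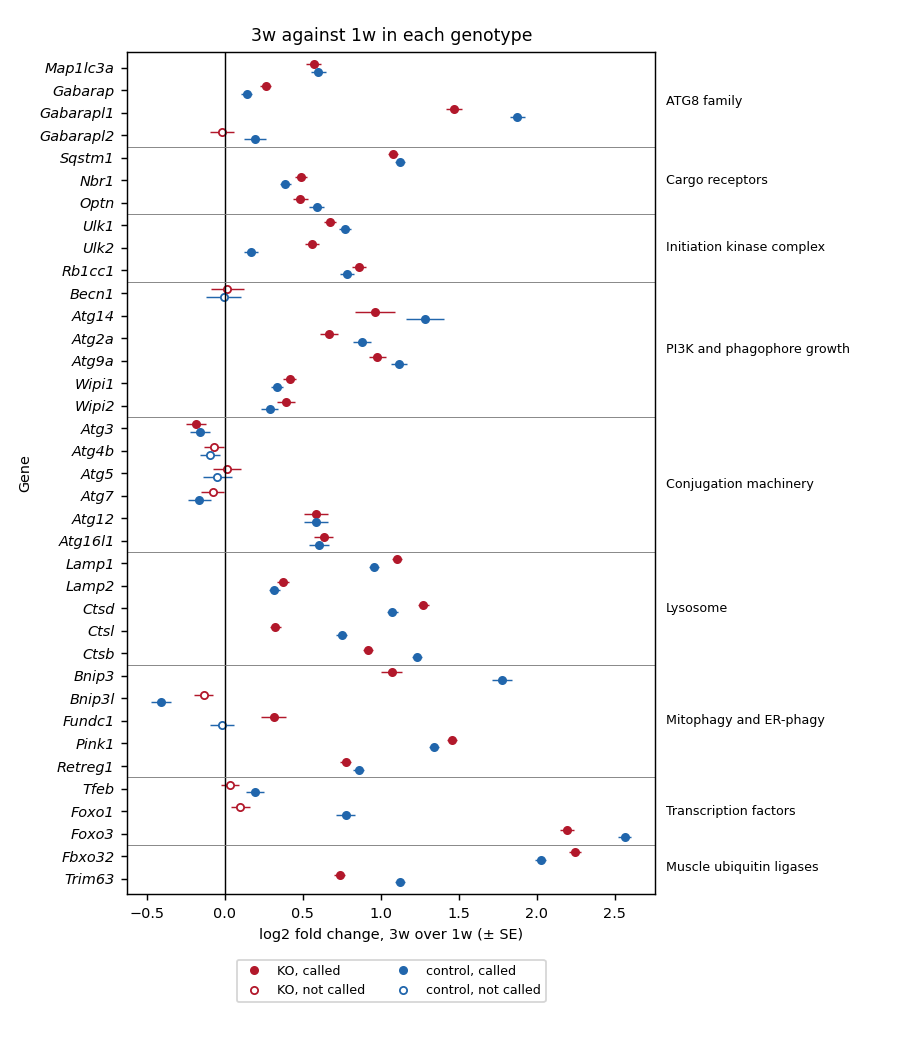
Log2 fold change of each tested member, 3w over 1w, in KO (red) and control (blue), with bars of 1 SE and filled points for changes at an edgeR adjusted p under 0.05. Foxo3 and Fbxo32 lie above 2.0 in both genotypes, and the conjugation genes other than Atg12 and Atg16l1 lie near 0.

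Members that rose with age and fell in KO numbered 23 of 37, against 16.3% of all genes tested. Since both comparisons use the same libraries, this count is given as a description. Examples with opposite signs are Retreg1 (-1.11 for KO and 0.82 for age), Fbxo32 (-0.70 and 2.14) and Foxo3 (-0.47 and 2.38). Ctsb alone among called members rose in both comparisons. Cardiomyocyte markers moved in the same way as the 23, with all 6 measured ones higher at 3w and lower in KO, while most fibroblast, endothelial and smooth muscle markers were lower at 3w and higher in KO. The part of either was not tested.

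**Figure D4:**
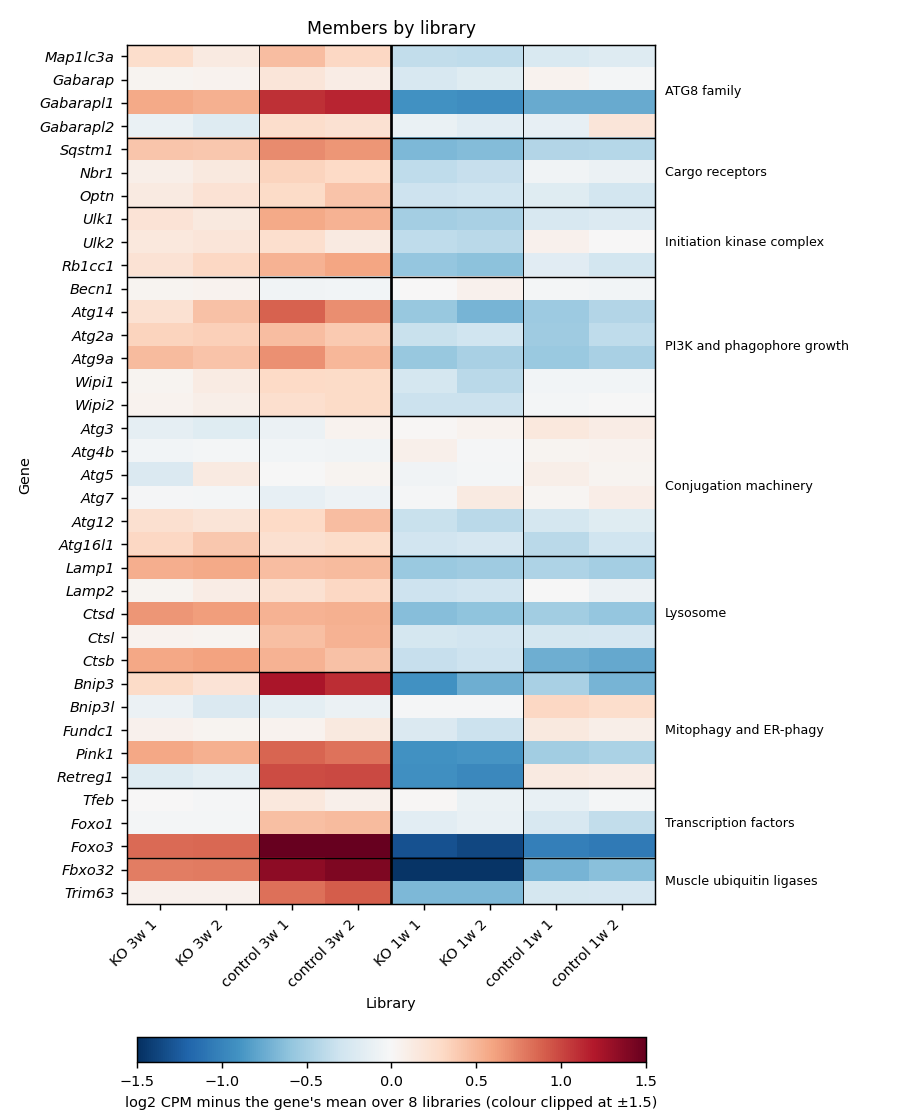
Log2 CPM of each tested member in every library, less the gene's mean over the 8 libraries, in colour from blue (below) to red (above) and clipped at 1.5. The 3w columns on the left are mostly red and the 1w columns mostly blue, and within each age most KO columns are paler red or deeper blue than the control columns.

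The KO effect differed between the ages for 15 members, 7 with a more positive value at 3w and 8 with a more negative one, on a background of 35.6% of all genes (17.6% more positive and 17.9% more negative). In order of size, the 8 largest differences, effect at 3w less effect at 1w, were those of Bnip3 (-0.71 ± 0.096), Foxo1 (-0.67 ± 0.088), Ctsl (-0.43 ± 0.052), Gabarapl1 (-0.41 ± 0.070), Ulk2 (0.39 ± 0.062), Trim63 (-0.39 ± 0.048), Foxo3 (-0.37 ± 0.060) and Fundc1 (0.33 ± 0.11, not called in 2 of the 8 fits that leave out 1 library). Bnip3, Gabarapl1, Trim63 and Foxo3 were called lower at both ages and had the more negative value at 3w, Ctsl was called at 3w alone, Foxo1 fell at 3w and rose at 1w, and Ulk2 and Fundc1 were called at 1w alone. Retreg1 had -0.083 ± 0.049 (edgeR adjusted p = 0.192). This contrast is the same as the split of Y-linked counts, so the 2 cannot be told apart. The ages also differed in labelled day of injection, which cannot be told apart from age. Carm1 itself had a difference of -0.34 ± 0.082 (edgeR adjusted p = 6.64e-04) along this contrast. Cell type markers differed along it too: 5 of 8 atrial markers (median difference -4.13), 6 of 8 epicardial (-2.49) and 16 of 17 macrophage markers (-0.96) had the more negative KO effect at 3w, and 9 of 10 smooth muscle markers (1.06) and 4 of 5 erythroid markers (1.78) the more positive one. The part of these markers, and of the larger Carm1 fall at 3w, in the members' differences was not tested. The share of members was close to that of all genes, and without KO at 1w replicate 1 4 of the 7 more positive differences were called, with Lamp1, Bnip3l and Pink1 lost.

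Other genes of the same pathways were read from the same fit, where 25.3% of all genes fell and 27.5% rose over both ages, with a median of 0.016. Of 35 measured other muscle ubiquitin ligases and partners 26 fell and 2 rose over both ages, with a median of -0.23. Asb11 (-0.69 ± 0.028), Asb14 (-0.65 ± 0.039) and the N-end rule ligase Ubr2 (-0.51 ± 0.028) fell most among those with at least 5 CPM. Of 23 FOXO family members and other FOXO targets 15 fell and 5 rose, with a median of -0.29. Pdk4, which blocks glucose oxidation, had 679 and 678 CPM in the 3w KO libraries against 2203 and 2339.5 CPM in the 3w controls, and 895 and 892 CPM in the 1w KO libraries against 1308 and 1296 CPM in the 1w controls. It was below control in every KO library, -1.14 ± 0.020, and Bcl2l11 (-1.03 ± 0.056), a cell death gene, and Irs2 (-0.99 ± 0.038), an insulin receptor substrate, fell by similar amounts.

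Of 35 other core autophagy genes 16 fell and 5 rose (median -0.069), with Atg10 (-0.55 ± 0.065), Atg16l2 (-0.27 ± 0.085, not called at 1w) and the fusion protein gene Stx17 (-0.26 ± 0.045) falling most. Of 26 other receptor and mitophagy genes 14 fell and 2 rose (median -0.10), with Nipsnap2 (-0.43 ± 0.021) and Calcoco1 (-0.37 ± 0.025) lower at both ages. Stbd1, whose product binds glycogen, went opposite ways: it had 21.2 and 20.2 CPM in the 3w KO libraries against 5.25 and 6.36 CPM in the 3w controls, and 1.89 and 1.72 CPM in the 1w KO libraries against 31.3 and 30.9 CPM in the 1w controls. It rose at 3w (1.86 ± 0.089) and fell at 1w (-4.10 ± 0.10), so that its mean over both ages, -1.12 ± 0.076, describes neither age, and at each age its change cannot be told apart from the Y-linked split. The 49 other lysosomal genes were divided, 18 lower and 13 higher (median -0.023): Ctsz (0.82 ± 0.059) and Gusb (0.55 ± 0.052) rose, and Ctsh (-0.77 ± 0.063, not called at 1w) fell. Of 29 genes of nutrient signalling and the MiT-TFE factors 11 fell and 8 rose (median -0.013), with Sesn1 (-0.54 ± 0.031, not called at 1w) and Fnip1 (-0.40 ± 0.035) lower and Sesn2 (0.53 ± 0.089) higher. The rises of lysosomal genes stand beside the macrophage sums given above, whose part in them was not tested.

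Levels per length put the members in an order that changed between groups. Per kilobase of exon, Map1lc3a was highest in all 4 groups, with 197 CPM per kb in the 3w KO group against 226 in the 3w controls. Its 1w levels were 133 CPM per kb for KO against 149 for control. At 3w Pink1 came next, with 147 CPM per kb in KO and 179 in control. Ctsb followed at 108 in KO at 3w, and Trim63 at 129 in control at 3w. Ctsd had 103 in KO at 3w, and 808 of its 2351 exonic bases overlap Gm49369 on the same strand. For Atg9a 1832 of 5762 exonic bases overlap Gm29253 on the same strand. Such overlaps can affect levels per length, and their part was not tested. At 1w Gabarap came next, with 72.3 CPM per kb in KO and 84.2 in control, then Ctsb at 57.4 in KO and Pink1 at 70.5 in control. Becn1 and Atg14 were the lowest members with counts in every group, between 0.739 and 1.98 CPM per kb.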

How the data were processed

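RNA was sequenced from isolated cardiomyocytes in 4 groups of 2 libraries, made with SMART and Nextera XT kits per the labels' protocols. Per the submitters' processing notes, the authors used FastQC, MultiQC, HISAT2, featureCounts and DESeq2 with mm10; their versions, the strand setting and the annotation were not stated. The deposited values are raw gene counts, 1 column per sample, with 0 columns left unmapped. GENCODE M21 named all but 29 IDs and gave the exon lengths.

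Genes passing filterByExpr (minimum count 10, minimum total 15) were scaled by TMM (factors 0.759 to 1.23) and tested in 1 robust quasi-likelihood fit of the 4 groups with edgeR 4.0.16 in R 4.3.3 (4 residual degrees of freedom), for 7 contrasts, with Benjamini-Hochberg adjustment over 14665 genes. KO and age over both levels are means of 2 contrasts. SEs come from the F statistic, and CPM uses the TMM factors. The procedure was tested on simulated data with the spread estimated by this fit, no age effect and far fewer changed genes than were called here. That setting cannot address spread between animals or the share of genes called. Libraries of a group differed by more than sampling noise, which gives a mean chi-square of about 1 per gene. At 3w the mean was 1.68 for KO and 6.95 for control, and at 1w 1.45 for KO and 3.13 for control. The fit's common coefficient of variation (SD over mean) was 3.03%, and whether that value reflects separate animals is not known.

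The members, lists and tests were chosen with earlier results of these data known. Members called over both ages, or with a log2 change of at least 0.5 called elsewhere, have every library's value; of each other list, up to 3 called genes with the largest change and at least 5 CPM are named. Alternatives were DESeq2 1.42.0, other scalings and filters, an additive fit, 2-group fits, a replicate block, a block by injection day and leaving out each library.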

Additional observations from a re-analysis of the deposited data

Results flagged for a closer look

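The KO effect differed between the ages, by the test of the difference itself (edgeR adjusted p under 0.05), for 15 members. As the effect at 3w less the effect at 1w on the log2 scale, the difference was -0.71 for Bnip3, -0.67 for Foxo1, -0.43 for Ctsl, -0.41 for Gabarapl1, -0.39 for Trim63, -0.37 for Foxo3, -0.32 for Ctsb and -0.21 for Atg2a. It was 0.39 for Ulk2, 0.33 for Fundc1, 0.27 for Bnip3l, 0.22 for Fbxo32, 0.20 for Ctsd, 0.15 for Lamp1 and 0.12 for Pink1. Foxo1 and Atg2a had effects of opposite sign at the 2 ages, as had Lamp1 and Ctsd. The split of the libraries by Y-linked counts is the same contrast and cannot be told apart from these differences. Carm1 itself had a difference of -0.34, whose part in them was not tested. Leaving out single libraries ended the calls of Atg2a (6 of the 8 fits), Pink1 (6), Lamp1 (3), Bnip3l (2) and Fundc1 (2).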

How the results depend on the processing

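Of 185 called results on members, 33 lost the call under at least 1 alternative and 0 reversed. The additive fit gave 17 members lower in KO over both ages and 4506 genes changed. With DESeq2, 1 member was higher in KO at 1w (3762 genes changed), 0 fell with age in KO (1 with edgeR), 1 fell with age in control, and 3 had a more positive KO effect at 3w (3144 genes differing). A minimum count of 50 gave 2 members higher in KO over both ages and 2 lower with age in KO, as did no filter for the latter; fits of 2 groups gave 2 lower with age in KO and 1 in control. Leaving out single libraries, the members higher in KO ranged from 1 to 2 over both ages, 0 to 3 at 3w and 1 to 2 at 1w, those lower with age 0 to 2 in KO and 1 to 2 in control, and those with a more positive effect at 3w 4 to 7. With the replicate number as a block 26 members fell and 1 rose in KO over both ages; Tfeb at 3w (-0.13), Atg7 with age in control (-0.15) and the difference for Pink1 (0.12) lost their calls and 210 of 213 results kept theirs. Same-numbered libraries of an age share a labelled postnatal day of injection, and did not deviate together (correlation between KO and control of -0.016 at 3w and -0.016 at 1w). Over all pairs of groups, including those of different ages, the correlations were -0.022 to 0.0083. With that day as a block within each age, chosen after seeing the data, 26 members fell and 1 rose over both ages, 8 members had a more positive KO effect at 3w (7 without the block), and Tfeb at 3w alone of the called results fitted lost its call; it gives no age comparison. Signs turned only for values not called under either setting. Leaving out single libraries, the log2 fold change ranged for Atg4b for KO over both ages from -0.027 to 0.022 (0.0041 with no filter and 0.011 at a minimum count of 50), Atg9a for KO at 1w from -0.046 to 0.037 (0.014 with no filter), Ctsl for KO at 1w from -0.033 to -0.0037 (0.011 with no filter), Becn1 for age from -0.012 to 0.028 (-0.011 with no filter and -0.012 at a minimum count of 50). It also ranged for Atg2a for KO over both ages from -0.022 to 0.058, Tfeb for KO at 1w from -0.038 to 0.083, Ulk2 for KO at 3w from -0.11 to 0.024, Atg5 for age from -0.091 to 0.087, Lamp1 for KO over both ages from -0.0097 to 0.024, Atg7 for KO over both ages from -0.0022 to 0.069, Ctsd for KO over both ages from -0.0076 to 0.032, Bnip3l for KO at 3w from -0.11 to 0.013. The cause of these shifts was not tested. With 2 libraries a group, changes as small as that of Atg3 in KO (-0.11) were called or not depending on single libraries.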

Other observations

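Map1lc3b, listed at 0 in every library, has a processed pseudogene, Gm6055, that matches 378 bases of its transcript at 99.7% identity. Gm6055 held 328 and 346 counts in the 3w KO libraries against 657 and 442 in the 3w controls, and 378 and 287 counts in the 1w KO libraries against 269 and 403 in the 1w controls. Another copy, Gm6054, held 209 counts in all. Actc1, Pln, Itgam and Tcf21 were likewise listed at 0 in all 8 libraries.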
